A study of Mus musculus with 10 samples.

Results

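The subject is a set of 10 genes of blood vessel walls and of leukocyte capture, taken by symbol from a table of 27919 genes and described in 10 libraries from 7 mouse tumors. The vessel identity genes are Pecam1, Cdh5, Kdr, Tek, Flt1 and Emcn, and the inflamed endothelium genes are Icam1, Vcam1, Sele and Selp. All 10 symbols were found in the table. The tumors grew from B16F10, a mouse melanoma cell line, carrying either an Ly86 overexpression construct (4 tumors, 5 libraries) or the vector (3 tumors, 5 libraries), and every mouse in both groups had been given 4 rounds of anti-PD-1 together with anti-CTLA4, antibodies against inhibitory receptors of T cells. The strain, age and sex of the mice, the promoter of the construct and whether each line was a clone are not given in the sources used here. Ly86 tumor 1, vector tumor 1 and vector tumor 2 were each sequenced as 2 pieces. Values are TPM, a relative abundance scaled to transcript length, so levels of different genes can be compared within a library; read depth is unknown because TPM does not keep it.

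Endothelial cells line blood vessels and hold together through junction proteins such as VE-cadherin and PECAM-1. They grow and survive on signals of the VEGF family and of the angiopoietins, which they read through tyrosine kinase receptors. When cytokines such as TNF, interleukin-1 or interferon gamma reach them, they display selectins, on which leukocytes roll, and then ICAM-1 and VCAM-1, to which leukocyte integrins bind firmly before the cells cross the wall. In tumors this display is known to vary and to bear on how many leukocytes enter.

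The promoters of the inflamed endothelium genes are shown because ICAM-1 and the selectins are textbook targets of NF-kB, and those of Kdr and Flt1 because the balance of these VEGF receptor genes set 1 tumor apart. RefSeq windows of build GRCm38.p6, which is not the mm39 build named for the expression table, matched 7 of the 10 members. Pecam1, Cdh5 and Vcam1 were not matched. Each line gives the 250 bases before the start site, 5′ to 3′ on the strand of the gene. They lie at chr9:21015690-21015939 (plus strand) for Icam1, chr1:164047984-164048233 (plus) for Sele, chr1:164115014-164115263 (plus) for Selp, chr5:75978456-75978705 (minus) for Kdr and chr5:147726012-147726261 (minus) for Flt1. Capitals mark matches on either strand to the 10-base NF-kB consensus or to GGNNNTTCC, a 9-base kappaB-type motif.
Icam1: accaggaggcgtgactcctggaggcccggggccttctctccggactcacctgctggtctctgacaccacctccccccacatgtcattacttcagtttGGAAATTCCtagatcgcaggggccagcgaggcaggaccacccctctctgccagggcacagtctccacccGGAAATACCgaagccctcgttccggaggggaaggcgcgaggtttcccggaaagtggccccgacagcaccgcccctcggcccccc
Sele: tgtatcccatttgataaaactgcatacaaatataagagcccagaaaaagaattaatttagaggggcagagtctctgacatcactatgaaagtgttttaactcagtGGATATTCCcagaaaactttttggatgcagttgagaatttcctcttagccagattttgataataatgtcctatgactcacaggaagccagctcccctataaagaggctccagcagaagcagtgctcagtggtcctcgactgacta
Selp: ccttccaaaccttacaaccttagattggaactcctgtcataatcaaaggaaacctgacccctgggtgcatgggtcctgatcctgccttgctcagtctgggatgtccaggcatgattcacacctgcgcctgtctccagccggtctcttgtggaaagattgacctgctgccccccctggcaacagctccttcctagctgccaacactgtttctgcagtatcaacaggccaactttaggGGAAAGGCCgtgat
Kdr: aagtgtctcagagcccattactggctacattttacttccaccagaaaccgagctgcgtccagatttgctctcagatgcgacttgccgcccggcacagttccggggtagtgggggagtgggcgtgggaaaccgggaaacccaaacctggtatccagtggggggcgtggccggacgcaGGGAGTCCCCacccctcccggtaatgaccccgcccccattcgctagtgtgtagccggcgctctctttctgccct
Flt1: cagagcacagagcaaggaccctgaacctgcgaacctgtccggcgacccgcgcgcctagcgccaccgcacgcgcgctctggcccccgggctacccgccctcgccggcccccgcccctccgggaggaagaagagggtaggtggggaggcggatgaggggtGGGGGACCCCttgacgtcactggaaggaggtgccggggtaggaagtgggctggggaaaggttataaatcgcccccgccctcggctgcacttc

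The 9-base motif was at 2 places before Icam1, at 1 before Sele and at 1 before Selp, and in none of the Kdr, Tek, Flt1 and Emcn windows. It was in 15.7% of all 32851 windows of the same length. The 10-base NF-kB consensus was at 1 place each before Kdr and Flt1, in none of the other 5 windows, and in 7.25% of all windows. TATAAA was before Sele and Flt1 (12.4% of all windows). GGAA, the core of ETS factor sites, was in all 7 windows, as in 93.4% of all, and some copies lie within the marked matches. The motifs were chosen with the sequences in view, and a match is a description of letters, not of binding.

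Melanocyte genes were abundant in every library, with Dct between 3180 and 6667 TPM, and the summed TPM of 7 melanocyte markers ran from 9752 to 19840. Ly86 itself was 49.2 to 81.9 TPM in the Ly86 libraries and 6.24 to 80.9 TPM in the vector libraries. Ly86 encodes MD-1, which B cells and macrophages also make. In the Ly86 libraries these values do not tell construct from endogenous RNA, while the vector tumors carried no Ly86 construct. The highest vector value was the first piece of vector tumor 2, so Ly86 level did not set that piece apart from the Ly86 libraries. It also held the most macrophage marker RNA (5127 summed TPM over 12 genes) and fibroblast marker RNA (4788 over 9 genes) and the least melanocyte RNA (9752) of all 10 libraries. All 23 other endothelial identity genes passed the expression minimum, so endothelial RNA was present in the tumors. In bulk tissue, fewer endothelial cells and less RNA per cell cannot be told apart.

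None of the 10 genes separated the Ly86 from the vector tumors. For every member the range of the 4 Ly86 tumors overlapped that of the 3 vector tumors. Over all 14556 genes tested, 10.5% had groups that did not overlap. Of the 9 members that reached a mean of 1 TPM, 0 had a limma adjusted p under 0.05, with 0% of all genes called, and 0 had an unadjusted p under 0.05, with 10.8% of all genes. Sele stayed under the minimum and was not tested, so it is not among the 14556 genes. In so small a set, counts of 0 are not distinct from these shares. The largest difference was that of Icam1, 0.87 higher on the log2(TPM + 1) scale in Ly86 tumors. The 6 vessel identity genes had a median log2 difference of 0.023 (3 higher, 3 lower) and the 4 inflamed endothelium genes 0.23 (3 higher, 1 lower), beside a median of -0.037 and a share of 43.8% higher over all genes tested. These medians were 0.40 (5 of 6 higher) and 0.53 with piece 1 of vector tumor 2 left out. They were -0.13 and -0.077 without vector tumor 1, and -0.34 and -0.064 with only the first pieces of divided tumors.

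**Figure D1:**
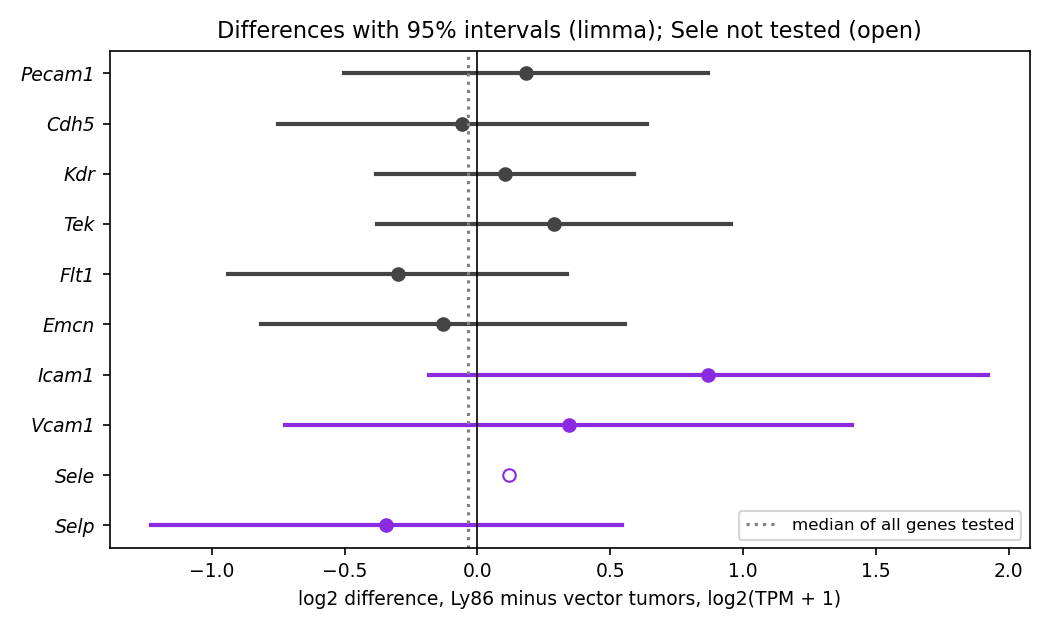
Log2 difference, Ly86 minus vector tumors, of each member on the log2(TPM + 1) scale (points), with limma 95% intervals (lines) for the 9 tested genes and the median of all genes tested as a dotted line. Every interval spans 0; Icam1 lies farthest to the right at 0.87, and Sele, open, has no interval because it was not tested.

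By median level the members ran from Pecam1 down to Flt1 without a clear break, and Tek, Selp and Sele lay far below. Over the 10 libraries, median TPM was 24.5 for Pecam1, 20.3 for Icam1, 18.8 for Cdh5 and 13.5 for Vcam1, and then 10.6 for Emcn, 8.47 for Kdr and 8.28 for Flt1. Tek was at 1.49, Selp at 1.06 and Sele at 0.16. Neighbours in this order were often not distinct: Pecam1 exceeded Icam1 in 6 of 10 libraries, Icam1 exceeded Cdh5 in 5 and Cdh5 exceeded Vcam1 in 7. Vcam1 exceeded Emcn in 7, Emcn exceeded Kdr in 8, Kdr exceeded Flt1 in 3 and Tek exceeded Selp in 6. Flt1 exceeded Tek, and Selp exceeded Sele, in all 10.

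Pecam1 and Cdh5 encode the junction proteins PECAM-1 and VE-cadherin. Pecam1 was 24.2 and 29.3 TPM in the pieces of Ly86 tumor 1 and 18.1, 24.7 and 44.9 in Ly86 tumors 2 to 4, against 15.0 and 21.0 in the pieces of vector tumor 1, 87.8 and 10.1 in those of vector tumor 2 and 24.8 in vector tumor 3. Ly86 tumor 4 was the highest of its group, while vector tumor 2 held both the highest and the lowest library of the series. Cdh5, which is largely confined to endothelium, was 18.1 and 20.4 TPM in the pieces of Ly86 tumor 1 and 14.2, 12.8 and 31.0 in Ly86 tumors 2 to 4, against 10.5 and 19.5 in vector tumor 1, 64.8 and 7.96 in vector tumor 2 and 20.4 in vector tumor 3. It took the same extremes in the same libraries.

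Per tumor, with pieces averaged on the log2(TPM + 1) scale, Pecam1 was 4.81 ± 0.52 (SD, n = 4) in Ly86 and 4.63 ± 0.37 (SD, n = 3) in vector tumors. Its log2 difference was 0.18 (SE 0.30, 95% interval -0.50 to 0.87, limma adjusted p = 0.866), with a two-sided exact permutation p of 0.629. Cdh5 was 4.26 ± 0.54 (SD, n = 4) and 4.32 ± 0.34 (SD, n = 3), a difference of -0.057 (SE 0.30, interval -0.75 to 0.64, limma adjusted p = 0.968, exact permutation p = 0.857). The smallest exact p that 35 assignments of the tumors allow is 0.0286. With piece 1 of vector tumor 2 left out the differences were 0.69 for Pecam1 and 0.42 for Cdh5. Without vector tumor 1 they were -0.015 and -0.25. All of these were also short of the threshold.

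Their levels tracked each other across libraries. Each spanned more than a factor of 8 (8.72 for Pecam1 and 8.14 for Cdh5 from lowest to highest), yet their TPM ratio within a library stayed between 1.08 and 1.93. It was 1.36 and 1.27 in the pieces of vector tumor 2, which differed most in level, and 1.93 in Ly86 tumor 3. By the root mean square difference of their centred profiles over the 7 tumors, the genes nearest to Cdh5 were Gm15429 (0.081 log2 units), BC049715 (0.088) and Sox17 (0.13), a transcription factor gene of arterial endothelium and the only one of the 3 on the endothelial lists. Cdh5 itself varied by 0.40 by the same measure. Among the 3 nearest genes of each of the 8 members other than Cdh5 and Vcam1, only Esm1, a tip cell gene near Emcn, was on a list.

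Kdr and Flt1 encode the VEGF receptors VEGFR2, the main signaling receptor for vessel growth, and VEGFR1, which binds the ligand tightly and signals weakly. Kdr was 9.49 and 8.86 TPM in the pieces of Ly86 tumor 1 and 6.71, 6.39 and 9.94 in Ly86 tumors 2 to 4, against 5.42 and 8.08 in vector tumor 1, 12.0 and 3.05 in vector tumor 2 and 9.33 in vector tumor 3. Of the 9 members detected in every library it had the narrowest span, 3.94-fold from the lowest to the highest library. Flt1 was 11.2 and 8.96 TPM in Ly86 tumor 1 and 7.13, 6.13 and 9.82 in Ly86 tumors 2 to 4, against 6.65 and 6.37 in vector tumor 1, 27.0 and 7.60 in vector tumor 2 and 11.2 in vector tumor 3. With pieces averaged on the log2(TPM + 1) scale, vector tumor 2 was the highest tumor in Flt1, at 3.96 against 3.60 in vector tumor 3. In Kdr it was the lowest by a narrow margin, at 2.86 against 2.89 in Ly86 tumor 3. That Kdr rank depends on averaging in log2, since its first piece was the highest Kdr library of all. The log2 difference was 0.10 for Kdr (SE 0.21, interval -0.38 to 0.59, limma adjusted p = 0.903), and 0.38 with piece 1 of vector tumor 2 left out. For Flt1 it was -0.30 (SE 0.28, interval -0.94 to 0.34, adjusted p = 0.724), with all 4 Ly86 tumors below the vector mean. With piece 1 of vector tumor 2 left out the Flt1 difference was -0.017. Without vector tumor 1 the differences were 0.043 for Kdr and -0.59 for Flt1.

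The ratio of Flt1 to Kdr TPM marked vector tumor 2 as a whole. It was 2.24 in its first piece and 2.49 in its second, although Cdh5 differed 8.14-fold between them. In the other 8 libraries it ran from 0.79 to 1.23, with both ends of that range in the pieces of vector tumor 1. This is 1 tumor of 3 in its group, and the ratio was noticed after the values were seen, so no test is given.

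**Figure D2:**
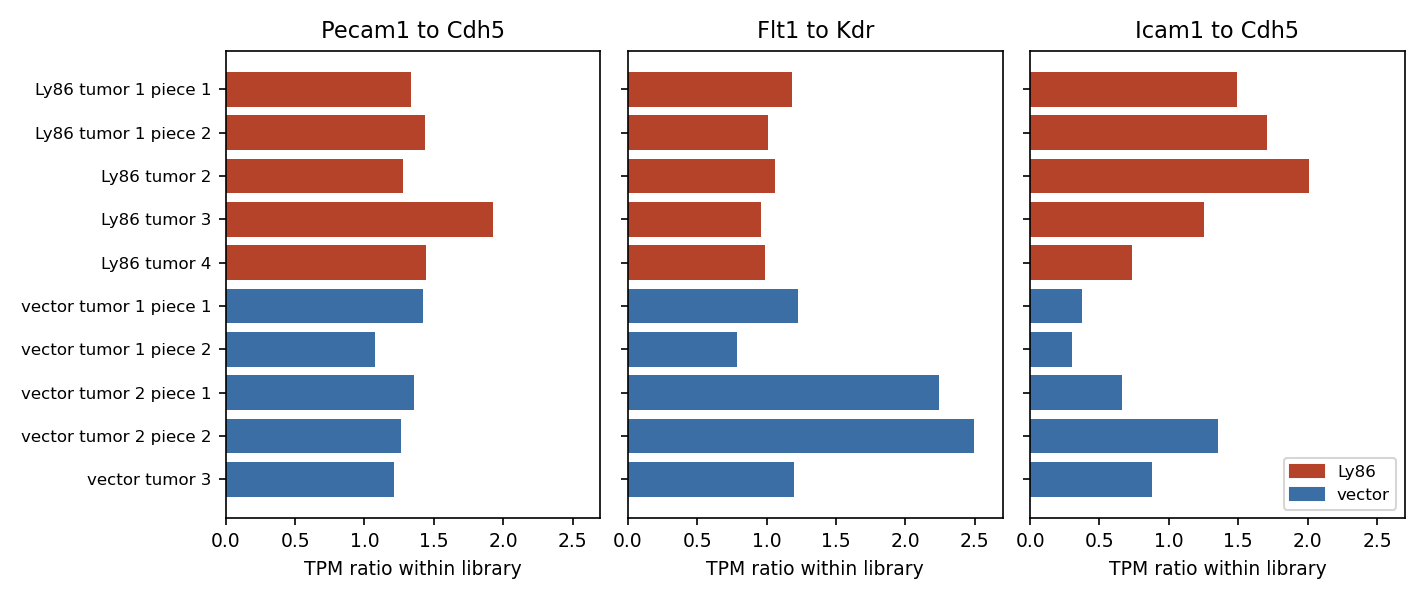
Ratio of TPM values within each library for Pecam1 to Cdh5, Flt1 to Kdr and Icam1 to Cdh5 (bars from 0, one per library, colored by group). Pecam1 to Cdh5 stays between 1.08 and 1.93, Flt1 to Kdr exceeds 2 only in the pieces of vector tumor 2, and Icam1 to Cdh5 is lowest in the pieces of vector tumor 1, at 0.37 and 0.30.

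Tek and Emcn complete the vessel group. Tek encodes TIE2, the angiopoietin receptor, which a subset of monocytes also carries, and was 1.38 and 2.31 TPM in the pieces of Ly86 tumor 1 and 0.79, 1.92 and 2.40 in Ly86 tumors 2 to 4, against 0.30 and 1.60 in vector tumor 1, 4.21 and 0.26 in vector tumor 2 and 1.19 in vector tumor 3. Both values under 0.5 TPM were pieces of vector tumors, and their partner pieces held 4.21 and 1.60 TPM. The log2 difference of 0.29 (SE 0.29, interval -0.38 to 0.95, limma adjusted p = 0.750) understates ratios at this low level. It was 0.63 with piece 1 of vector tumor 2 left out and 0.17 without vector tumor 1. Emcn encodes endomucin, a sialoglycoprotein of capillary and venous endothelium that hinders leukocyte adhesion. It was 10.97 and 7.14 TPM in Ly86 tumor 1 and 6.60, 12.5 and 17.5 in Ly86 tumors 2 to 4, against 9.17 and 10.1 in vector tumor 1, 31.5 and 5.95 in vector tumor 2 and 12.1 in vector tumor 3. Its difference was -0.13 (SE 0.30, interval -0.82 to 0.56, limma adjusted p = 0.918). It was 0.24 with piece 1 of vector tumor 2 left out and -0.26 without vector tumor 1.

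**Figure D3:**
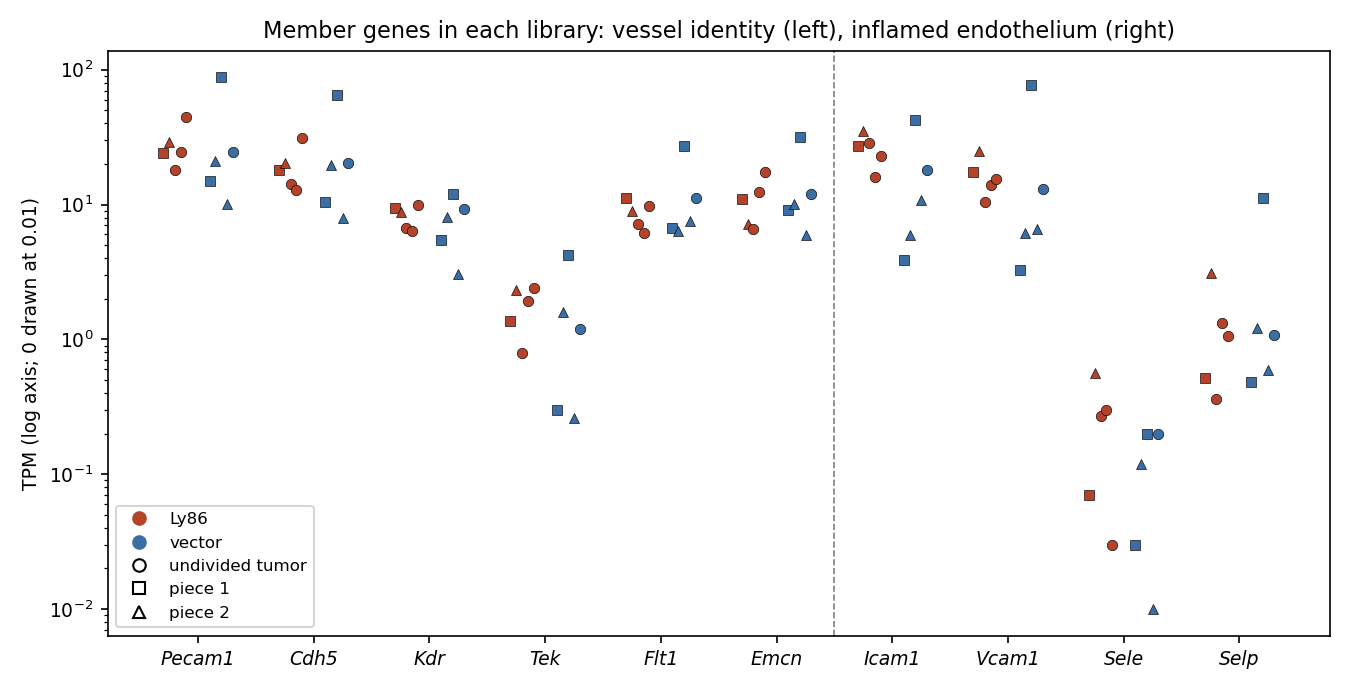
TPM of each member in each of the 10 libraries on a log axis, with Ly86 libraries left and vector libraries right of each gene's position; squares and triangles are first and second pieces of divided tumors and circles undivided tumors. For the 9 genes other than Sele the highest point is the first piece of vector tumor 2, a blue square; Sele stays under 1 TPM, and its value of 0 is drawn at 0.01.

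Icam1 encodes ICAM-1, the ligand of the integrins LFA-1 and Mac-1, and is made by endothelium, macrophages and tumor cells alike. It was 27.0 and 34.9 TPM in the pieces of Ly86 tumor 1 and 28.5, 16.0 and 22.8 in Ly86 tumors 2 to 4, against 3.91 and 5.92 in vector tumor 1, 42.7 and 10.8 in vector tumor 2 and 17.9 in vector tumor 3. All 5 Ly86 libraries exceeded the 3 lowest vector libraries, but the first piece of vector tumor 2 was above every Ly86 library and vector tumor 3 was above Ly86 tumor 3. Per tumor it was 4.63 ± 0.40 (SD, n = 4) in Ly86 and 3.76 ± 1.06 (SD, n = 3) in vector tumors on the log2(TPM + 1) scale, so the vector group spread 2.65 times as widely. The difference of 0.87 (SE 0.46, interval -0.18 to 1.92) had a limma adjusted p of 0.525, an unadjusted p of 0.0931 and an exact permutation p of 0.171. It was above 0 under all 21 alternatives, from 0.26 without vector tumor 1 to 1.24 without vector tumor 2, with adjusted p between 0.124 and 1.00. The filter and eBayes settings among these cannot change the difference, so they could not have turned its sign. The difference was 1.19 with piece 1 of vector tumor 2 left out.

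Vcam1 encodes VCAM-1, the ligand of the integrin VLA-4, which inflamed endothelium shares with some macrophages and stromal cells. It was 17.5 and 24.8 TPM in the pieces of Ly86 tumor 1 and 10.4, 13.9 and 15.5 in Ly86 tumors 2 to 4, against 3.28 and 6.11 in vector tumor 1, 77.3 and 6.64 in vector tumor 2 and 13.1 in vector tumor 3. The first piece of vector tumor 2 held 11.6 times the level of the second and lay above every other library. Per tumor it was 3.97 ± 0.39 (SD, n = 4) against 3.63 ± 1.09 (SD, n = 3), a difference of 0.34 (SE 0.46, interval -0.72 to 1.41, limma adjusted p = 0.828, exact permutation p = 0.629). It was -0.24 without vector tumor 1 and 0.90 with piece 1 of vector tumor 2 left out. The genes nearest to Vcam1 in profile were Sgk1, a kinase gene, at 0.14 log2 units, Pgf, a VEGFR1 ligand, at 0.19 and Smim3 at 0.19, and the nearest member was Icam1 at 0.44.

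The selectin genes were low. Selp, which encodes P-selectin of endothelial and platelet granules, was 0.52 and 3.11 TPM in the pieces of Ly86 tumor 1 and 0.36, 1.33 and 1.06 in Ly86 tumors 2 to 4, against 0.48 and 1.21 in vector tumor 1, 11.3 and 0.59 in vector tumor 2 and 1.07 in vector tumor 3. The first piece of vector tumor 2 was far above the rest, at 19.1 times its second piece. The difference of -0.34 (SE 0.38, interval -1.23 to 0.54, limma adjusted p = 0.786) became 0.15 without that piece and -0.59 without vector tumor 1. Sele, which encodes E-selectin, made by activated endothelium, was 0.070 and 0.56 TPM in Ly86 tumor 1 and 0.27, 0.30 and 0.030 in Ly86 tumors 2 to 4, against 0.030 and 0.12 in vector tumor 1, 0.20 and 0 in vector tumor 2 and 0.20 in vector tumor 3. No library reached 1 TPM, and the first piece of vector tumor 2, so high in Vcam1 and Selp, was not the highest here. Of 10 platelet genes, Gp9, Gp1ba, Gp5, Gp6 and Treml1 stayed under 1 TPM in every library, while Gp1bb reached 1.80 TPM, Ppbp 4.44 and Itga2b 4.45. Itgb3 was 6.43 to 15.1 TPM, and Pf4, which macrophages also express, was 8.07 to 304 TPM. Their part in the Selp values was not tested.

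Set beside vessel content, the inflamed endothelium genes still overlapped between groups. The TPM ratio of Icam1 to Cdh5 was 1.49 and 1.71 in Ly86 tumor 1 and 2.01, 1.25 and 0.73 in Ly86 tumors 2 to 4, against 0.37 and 0.30 in vector tumor 1, 0.66 and 1.35 in vector tumor 2 and 0.88 in vector tumor 3. The ratio of Vcam1 to Cdh5 was 0.96 and 1.22 in Ly86 tumor 1 and 0.73, 1.09 and 0.50 in the other Ly86 tumors, against 0.31 and 0.31 in vector tumor 1, 1.19 and 0.83 in vector tumor 2 and 0.64 in vector tumor 3. Both pieces of vector tumor 1 were lowest in both ratios, and Ly86 tumor 4, richest in Cdh5 within its group, was lowest among the Ly86 tumors. The median of the 4 inflamed endothelium genes minus the median of the 6 vessel identity genes, in log2(TPM + 1), averaged -0.89 ± 0.33 (SD, n = 4) in Ly86 and -1.12 ± 0.46 (SD, n = 3) in vector tumors, which overlapped. The vessel median by itself was 3.38 ± 0.35 (SD, n = 4) against 3.59 ± 0.38 (SD, n = 3), a difference of -0.20, opposite in sign to the 0.023 of the median gene difference. The inflamed median by itself was 2.49 ± 0.38 (SD, n = 4) against 2.47 ± 0.83 (SD, n = 3). That difference of 0.019 was smaller than the 0.23 of the median gene difference.

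**Figure D4:**
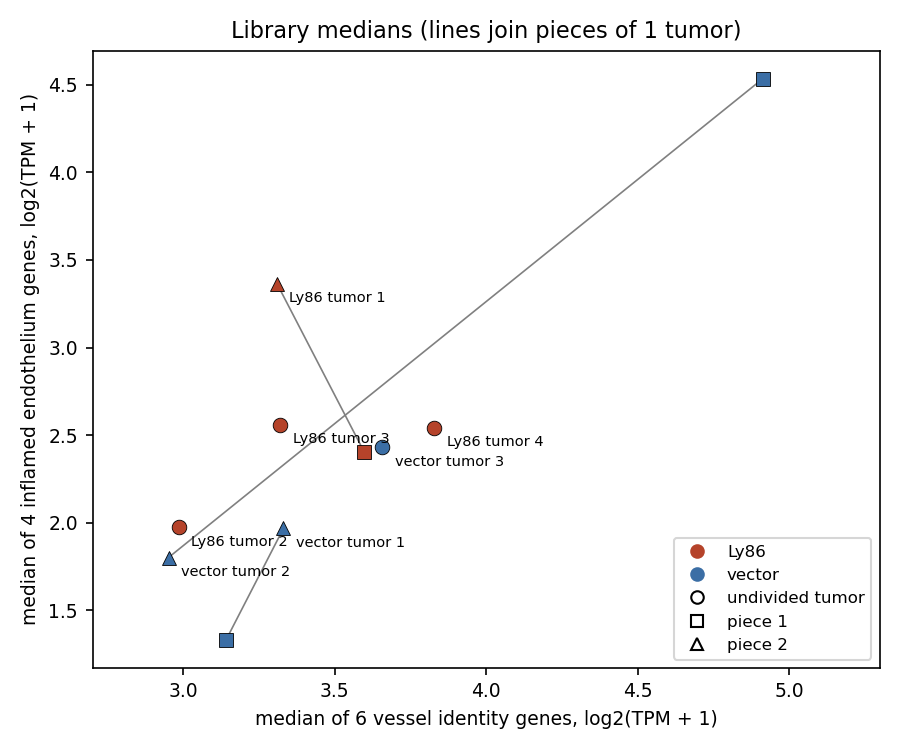
Median log2(TPM + 1) of the 4 inflamed endothelium genes against that of the 6 vessel identity genes in each library, with lines joining pieces of 1 tumor. The pieces of vector tumor 2 lie farthest apart, with vessel and inflamed medians of 4.91 and 4.53 in the first and 2.95 and 1.80 in the second.

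In vector tumor 2, 9 of the 10 members differed between pieces by more than 1 log2 unit, all higher in the first piece, where 19.2% of all genes tested passed that size in either direction. The log2 difference between its pieces was 3.36 for Vcam1, 3.00 for Pecam1, 2.95 for Selp and 2.88 for Cdh5, and 0.26 for Sele. Macrophage marker RNA differed in the same direction (5127 against 365 summed TPM), as did fibroblast (4788 against 112), pericyte and smooth muscle (333 against 61.2) and lymphatic endothelial marker RNA (198 against 50.01), while melanocyte RNA was lower (9752 against 18796). Their part in the members' values was not tested. In Ly86 tumor 1 only Selp passed 1 log2 unit, lower in the first piece at -1.44, beside 6.31% of all genes tested. In vector tumor 1 no member exceeded it, beside 5.14% of all genes tested.

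The other endothelial identity genes were split in direction. Of 23, 11 were higher and 12 lower in Ly86 tumors, with a median log2 difference of -0.028, and 0 passed limma's adjusted threshold. The smallest unadjusted p belonged to Cd34, a sialomucin gene that fibroblasts also express, at 1.00 (SE 0.32, adjusted p = 0.437), and Calcrl, a receptor gene for adrenomedullin, at 0.62 (SE 0.20, adjusted p = 0.437), both with non-overlapping groups. Icam2 also had an unadjusted p under 0.05. Groups did not overlap for 3 of the 23, Icam2 among them, beside 10.5% of all genes tested. Summed TPM over the list was 364 to 513 in Ly86 and 271 to 891 in vector libraries. With piece 1 of vector tumor 2 left out, 21 of 23 were higher with a median of 0.36, and without vector tumor 1, 7 were higher with a median of -0.24. With array weights, which put a weight of 22.8 on vector tumor 3, Cd34 and Calcrl passed. In that setting 1832 of all 14556 genes tested passed, 626 of them higher.

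For the ligands of the receptors among the members, 0 genes passed. Of 10 genes for VEGF and angiopoietin ligands and co-receptors, 6 were higher and 4 lower, with a median of 0.085 and 0 past the threshold. Vegfa, the main VEGFR2 ligand, was 69.4 to 200 TPM with a difference of 0.066 (SE 0.23). Angpt1, which activates TIE2, differed by 0.45 (SE 0.27) at 0.34 to 2.03 TPM, and Angpt2, its context-dependent antagonist, by -0.18 (SE 0.19) at 14.9 to 36.8 TPM. Nrp1, a VEGF co-receptor gene, had the second smallest unadjusted p of the list after Angpt1, at 0.35 (SE 0.27, limma adjusted p = 0.667). Of 8 tip cell genes 3 were higher, with a median of -0.11 and 0 past the threshold, among them Kcne3 at -0.48 (SE 0.29) and Cxcr4 at 0.38 (SE 0.28). With piece 1 of vector tumor 2 left out, the direction of the tip cell median turned to 0.13 (6 of 8 higher), and the median of the ligands and co-receptors was 0.28 (7 of 10 higher).

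The leukocyte partners of the adhesion molecules differed among themselves. Of 13 tested integrins and selectin ligands 8 were higher and 5 lower in Ly86 tumors, with a median of 0.61 and 0 past limma's adjusted threshold. Groups did not overlap for 4 of the 13, 3 of them higher, beside 10.5% of all genes tested. For the ICAM-1 ligands, Itgal, the LFA-1 alpha chain, differed by 0.85 (SE 0.54) and Itgb2, their shared beta chain, by 1.16 (SE 0.47). Itgam, the Mac-1 alpha chain, was higher in Ly86 tumors with non-overlapping groups, 5.39 ± 0.20 (SD, n = 4) against 4.09 ± 1.27 (SD, n = 3) on the log2(TPM + 1) scale (limma adjusted p = 0.449). For the VCAM-1 ligand chains, Itga4 had non-overlapping groups, lower in Ly86 tumors, at -0.69 (SE 0.22, limma adjusted p = 0.437), and Itgb1 differed by -0.093 (SE 0.093). Itgb7, an alternative partner of Itga4 found on lymphocytes and mast cells, was higher in every Ly86 tumor at 1.46 (SE 0.36, adjusted p = 0.437), and Selplg, the P-selectin ligand, differed by 1.23 (SE 0.52, adjusted p = 0.456). The list median was 1.08 with piece 1 of vector tumor 2 left out, and 0.18 without vector tumor 1. With array weights Itga4 passed as lower and Itgax, a myeloid integrin gene, as higher, where 1832 of all 14556 genes passed.

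Among 9 tested other adhesion molecules of vessels, 7 were higher and 2 lower with a median of 0.068, and 0 passed limma's adjusted threshold. Groups did not overlap for 3 of the 9, 2 of them higher, beside 10.5% of all genes tested. Ackr1, a chemokine-binding protein of venules, stood at 0.94 (SE 0.30) and Icam2, an LFA-1 ligand of resting endothelium and leukocytes, at 0.76 (SE 0.28), each higher in every Ly86 tumor, with adjusted p of 0.437 and 0.441. Mcam, which melanoma cells also express, was lower in every Ly86 tumor at -0.45 (SE 0.17, adjusted p = 0.441). The median was 0.19 with piece 1 of vector tumor 2 left out. Madcam1, a gut addressin, was at most 0.55 TPM. With array weights Ackr1 passed as higher and Mcam as lower, where 1832 of all 14556 genes passed.

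Of 17 tested genes for inducing cytokines, their receptors and NF-kB factors, 14 were higher in Ly86 tumors with a median of 0.67, and 0 passed limma's adjusted threshold. Tnfrsf1b, a TNF receptor gene of leukocytes and endothelium, differed by 1.15 (SE 0.42, adjusted p = 0.441) and Tnf by 1.22 (SE 0.47, adjusted p = 0.449). Of the NF-kB subunit genes on the list, Rela stood at -0.10 (SE 0.13), Nfkb1 at 0.10 (SE 0.17), Nfkb2 at -0.0092 (SE 0.15) and Relb at 0.46 (SE 0.21, adjusted p = 0.481). The median was 0.24 when vector tumor 1 was left out and was 0.90 with piece 1 of vector tumor 2 left out. With array weights Relb and Tnfaip3 passed as higher, where 1832 of all 14556 genes passed.

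**Figure D5:**
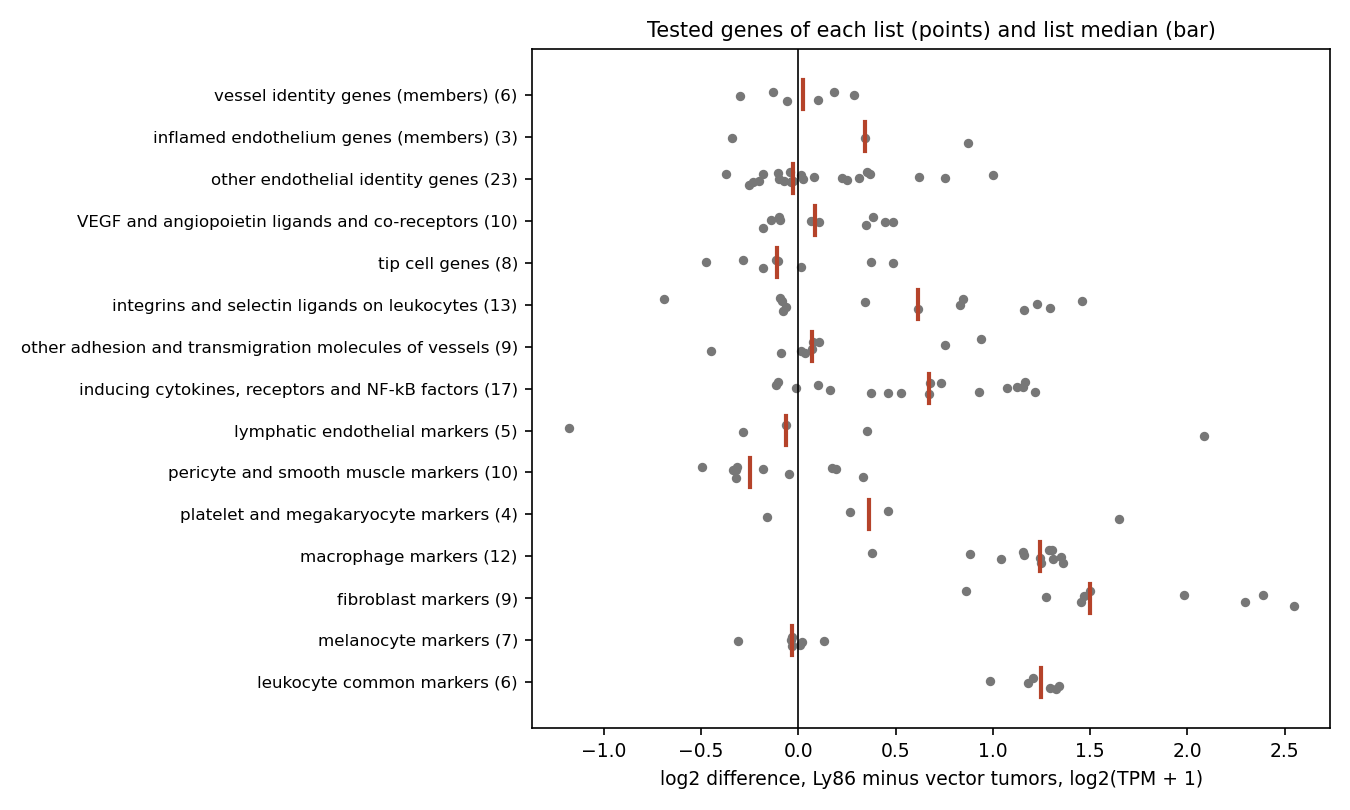
Log2 difference, Ly86 minus vector tumors, of the tested genes of each list (points, vertical jitter only) and the list median (bars), with the number of tested genes in parentheses; the inflamed endothelium median of 0.34 is that of its 3 tested genes, without Sele. The vessel and melanocyte lists center near 0, while the macrophage, fibroblast and leukocyte lists have medians of 1.24, 1.50 and 1.25.

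Other cells that can express some of the members were followed by their markers. All 12 macrophage markers were higher in Ly86 tumors with a median of 1.24, Lyz2 at 1.36 (SE 0.28) and Cd68 at 7.52 ± 0.22 (SD, n = 4) against 6.22 ± 0.94 (SD, n = 3) on the log2(TPM + 1) scale, and their summed TPM was 1807 to 3650 in Ly86 and 365 to 5127 in vector libraries. All 9 fibroblast markers were higher with a median of 1.50, Dcn at 2.39 (SE 0.45) and Dpt at 2.30 (SE 0.44), and their sum was 982 to 2710 against 112 to 4788. All 6 tested leukocyte markers were higher with a median of 1.25, Cd53 at 1.34 (SE 0.41) and Ptprc at 1.32 (SE 0.53), and 251 to 527 against 47.2 to 772 summed TPM. In these 3 lists 0 genes passed limma's adjusted threshold, and no marker was at 0 in every library. With array weights Lyz2, Cd163, Dcn, Dpt, Lum, Pi16 and Cd3e passed, all higher. In that setting 1832 of all 14556 genes passed, 626 of them higher. Pi16 also passed, as higher, with second pieces alone, where 37 of all genes tested passed. The macrophage, fibroblast and leukocyte medians were 1.82, 2.44 and 1.75 with piece 1 of vector tumor 2 left out, and the macrophage and leukocyte medians were 0.62 and 0.54 when vector tumor 1 was. The part of these cells in the Icam1 and Vcam1 values was not tested.

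Mural, lymphatic, platelet and melanocyte markers were split in direction. Of 10 pericyte and smooth muscle markers 3 were higher and 7 lower with a median of -0.25, Cspg4 at -0.32 (SE 0.24) and Notch3 at -0.34 (SE 0.32); with piece 1 of vector tumor 2 left out, 8 were higher with a median of 0.16. Of 5 tested lymphatic markers 2 were higher with a median of -0.065. Lyve1, which resident macrophages also express, differed by 2.09 (SE 0.39, limma adjusted p = 0.409). Prox1, the defining lymphatic factor, differed by -0.065 (SE 0.24) at 0.87 to 1.88 TPM. With array weights Lyve1 and Pdpn passed as higher, where 1832 of all 14556 genes passed. With second pieces alone Lyve1 passed, where 37 of all genes tested did. Of 4 tested platelet genes 3 were higher, Pf4 at 1.65 (SE 0.49) and Itgb3 at 0.46 (SE 0.22), with a median of 0.36. The 7 melanocyte markers had a median of -0.032, Sox10 at -0.31 (SE 0.18) and Mlana at 0.13 (SE 0.15). The platelet median was 0.58 (4 of 4 higher) and the melanocyte median -0.16 (1 of 7 higher) with piece 1 of vector tumor 2 left out. With all pieces averaged and no array weights, 0 genes of these 4 lists passed limma's adjusted threshold.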

How the data were processed

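Polyadenylated RNA from 10 libraries of 7 tumors was sequenced on an Illumina NovaSeq system per the labels, and reads were processed with STAR 2.7.10b, RSEM 1.3.3 and mm39 per the submitters' processing notes. The deposited values are log2(TPM + 1), a scale read from the values: undoing it gave multiples of 0.01 TPM for 99.9% of values, within 1e-04 hundredths, and library sums of 994679 to 996446. The sources used here do not say how repeated symbols were handled.

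Pieces of a tumor were averaged on the log2 scale (pseudocount 1), giving 4 Ly86 and 3 vector tumors. Tumors are numbered without naming the mice, so p-values measure the spread between tumors. Genes with a mean of at least 1 TPM (14556) entered limma 3.58.1 in R 4.3.3 (eBayes with trend), with Benjamini-Hochberg adjustment over all genes and a threshold of 0.05. Exact permutation tests were two-sided over 35 assignments. Fold changes understate low genes. On simulated data for this comparison, 14556 genes were drawn as independent with equal spread in both groups. Changes of 1, 2 and 4 log2 units were planted in 67, 67 and 66 genes, and 56.7%, 85.1% and 97.0% of them were recovered. These rates need not hold for the data, where 0 genes passed and spreads could differ between groups, by a factor of 2.65 for Icam1.

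Members and lists were chosen with earlier results of these data known. Named genes are all members, their known partners, and from each list the 2 smallest unadjusted p and others named for their role, the latter chosen after their values were seen. Likeness of profiles was the root mean square difference over 7 centred tumor values. Alternatives were pseudocounts of 0.1 and 0.5, no filter or a mean of 5 TPM, median-of-ratios scaling, leaving out mitochondrially encoded and hemoglobin genes, all 10 libraries in 1 fit with tumor as random effect, single pieces, other eBayes settings, blocking on tumor number, array weights, and omission of each tumor in turn. Figures used matplotlib 3.10.9 in Python 3.11.15.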

Additional observations from a re-analysis of the deposited data

Results flagged for a closer look

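In the Ly86 group of 4 tumors, Sele in tumor 4 stood apart at 0.043 log2(TPM + 1), below the other 3 Ly86 tumors by more than Dixon's 95% limit allows. Chance sets off this limit in about 1 in 20 groups, and 13 values were examined. The gene was under 1 TPM in every library. Ly86 tumor 1 entered as the average of its pieces at 0.070 and 0.56 TPM, and the first was near the 0.030 TPM of tumor 4. The flag therefore depends on that averaging.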

How the results depend on the processing

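No member passed limma's adjusted threshold under any of the 21 alternatives. Over all genes the count of 0 became 1 when divided tumors were represented by first pieces alone, 37 by second pieces alone, 3 with piece 1 of vector tumor 2 left out and 1832 (626 higher) with array weights, and ranged from 0 to 2 when single tumors were left out. The unadjusted p was under 0.05 for 1565 genes. The vessel identity median of 0.023 was -0.34 with only the first pieces and 0.40 with piece 1 of vector tumor 2 left out. The inflamed endothelium median of 0.23 ranged from -0.077 without vector tumor 1 to 0.54 with only the second pieces. A separate measure, the inflamed minus vessel median within each tumor, was 0.22 higher in Ly86 tumors and ranged from 0.022 to 0.50. Of its 2 parts in the main setting, the vessel median differed by -0.20 and the inflamed median by 0.019.

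Signs of single genes turned in some settings, none of them past the threshold. With only the first pieces, Pecam1 was -0.27, Kdr -0.083 and Vcam1 -0.15. With only the second pieces, Cdh5 was 0.30, Emcn 0.15 and Selp 0.23. With piece 1 of vector tumor 2 left out, Cdh5 was 0.42, Emcn 0.24 and Selp 0.15. Kdr was -0.14 with array weights. Leaving out single tumors, Pecam1 ranged from -0.051 to 0.37, Cdh5 from -0.30 to 0.10, Emcn from -0.35 to 0.078, Vcam1 from -0.24 to 0.83 and Selp from -0.59 to 0.055. The causes were not tested. Icam1, Tek, Flt1 and Sele kept their sign throughout, though the filter and eBayes settings cannot change a sign. Median-of-ratios scaling shifted the median of all genes by 0.030.

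Tumor numbers are shared between groups, but same-numbered tumors did not deviate together (r across genes of -0.17, -0.11 and -0.31), so they were not treated as paired. With the tumor number as a replicate block over tumors 1 to 3, 0 members and 0 genes passed, and Pecam1 was -0.051.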
